A study of Mus musculus with 6 samples.

Results

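Insulin and the insulin-like growth factors act through a shared pathway, and 10 of its genes were read here in whole pancreas of mice lacking Rkip-1. They are the ligands Igf1 and Igf2, the receptors Igf1r and Insr, the adaptors Irs1 and Irs2, the PI3K subunit Pik3r1, the kinases Akt1 and Akt2, and the transcription factor Foxo1. The genes were given by name, and every probe set whose platform annotation names one of them and no other gene was taken. This gave 31 probe sets of 45037 tested, and all 10 genes of 18193 genes with such a probe set. Igf1r had 5 probe sets, Igf1, Pik3r1, Akt1 and Foxo1 had 4 each, Insr and Akt2 had 3 each, Igf2 had 2, and Irs1 and Irs2 had 1 each. Sets are numbered within a gene from the brightest.

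The KO group was 3 mice without Rkip-1, the Raf kinase inhibitor encoded by Pebp1, and the WT group was 3 wild-type mice bred in one colony with them. Both groups were 8 weeks old and untreated, on a C57BL/6 background, and each sample was hybridised to 1 Affymetrix array, 6 arrays in all. The labels call the samples biological replicates and give no sex, litter or scan batch, nor the part of Pebp1 that was removed. The subject of the study is the growth of beta cells, which are a small part of the whole pancreas measured here.

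When ligand binds, the receptors, which are tyrosine kinases, phosphorylate the adaptors Irs1 and Irs2. The adaptors recruit PI3K, a regulatory subunit such as the product of Pik3r1 joined to a catalytic subunit, whose lipid product brings AKT to the membrane. AKT then phosphorylates FOXO1 and keeps it out of the nucleus, and it activates protein synthesis through mTOR. In mice, beta cell mass is known to depend on this route, and animals without Irs2 lose beta cells and become diabetic. Most of this signal passes as protein phosphorylation, which an array of transcripts does not measure.

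Pebp1 was low in each library labelled KO. Its brightest probe set measured 5.89, 6.50 and 5.71 in KO replicates 1, 2 and 3, against 9.81, 10.01 and 9.81 in WT replicates 1, 2 and 3 (log2, adjusted p of 5.05e-05 by limma). The other Pebp1 set measured 2.76, 3.35 and 3.56 in KO, against 8.58, 8.53 and 8.45 in WT (adjusted p of 4.30e-06 by limma). Pairs of arrays had correlations of 0.989 to 0.993 over all probe sets, and array medians were 2.97 to 3.02 (log2). The tissue was checked against marker genes. Of 10 measured acinar markers 0 lay below the array medians, and the digestive enzyme genes Cpa1 and Cel averaged 14.36 and 14.27 in KO and 14.39 and 14.31 in WT. Of 9 measured beta cell markers 1 lay below the array medians, and Ins2 measured 12.61 ± 0.08 in KO and 12.69 ± 0.02 in WT (SD, n = 3 each).

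The start regions of 3 of the genes, Igf1, Igf2 and Pik3r1, are shown because each had at least 1 probe set lower in KO at an unadjusted p under 0.05. Each sequence is the 250 bases before a transcript start, from RefSeq on build GRCm38.p6, read 5′ to 3′ on the gene's strand. Capitals mark the GC box, searched as GGGCGG on both strands, which is the binding site of the Sp1 family of transcription factors. Igf1 has 1 listed start, at chr10:87860861-87861110 (+). Igf2 has 4, and those holding a GC box are at chr7:142657497-142657746 (-) and chr7:142658805-142659054 (-). The labels downstream and upstream below compare only these with each other, and the remaining Igf2 starts lie farther upstream. Pik3r1 has 2, at chr13:101768218-101768467 (-) and chr13:101692631-101692880 (-), in front of its long and short transcripts.
Igf1: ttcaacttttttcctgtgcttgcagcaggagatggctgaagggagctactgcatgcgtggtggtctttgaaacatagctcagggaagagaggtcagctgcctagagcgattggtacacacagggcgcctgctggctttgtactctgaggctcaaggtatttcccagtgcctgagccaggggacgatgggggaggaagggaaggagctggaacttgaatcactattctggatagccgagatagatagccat
Igf2, downstream start: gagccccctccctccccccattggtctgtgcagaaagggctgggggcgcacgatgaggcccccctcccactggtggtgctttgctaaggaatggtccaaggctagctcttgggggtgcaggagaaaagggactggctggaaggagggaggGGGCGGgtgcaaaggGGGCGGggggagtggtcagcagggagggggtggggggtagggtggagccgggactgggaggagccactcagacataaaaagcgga
Igf2, upstream start: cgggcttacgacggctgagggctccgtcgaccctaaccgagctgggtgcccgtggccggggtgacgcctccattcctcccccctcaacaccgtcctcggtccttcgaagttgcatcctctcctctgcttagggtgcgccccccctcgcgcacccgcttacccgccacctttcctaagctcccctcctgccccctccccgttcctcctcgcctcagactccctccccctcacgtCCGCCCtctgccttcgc
Pik3r1, long transcripts: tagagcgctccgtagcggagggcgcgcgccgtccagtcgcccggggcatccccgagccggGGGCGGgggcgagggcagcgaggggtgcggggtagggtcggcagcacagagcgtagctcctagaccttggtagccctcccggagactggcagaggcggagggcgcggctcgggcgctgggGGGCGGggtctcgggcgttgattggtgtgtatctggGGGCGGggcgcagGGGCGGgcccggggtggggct
Pik3r1, short transcripts: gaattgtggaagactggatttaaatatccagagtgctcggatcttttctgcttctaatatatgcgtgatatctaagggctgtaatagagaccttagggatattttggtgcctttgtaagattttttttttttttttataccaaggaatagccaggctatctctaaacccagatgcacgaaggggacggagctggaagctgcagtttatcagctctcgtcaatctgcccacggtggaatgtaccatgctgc
The window of the long Pik3r1 transcripts held 4 GC boxes at a G+C content of 76.4%, and that of the short ones held 0 at 42.4%. Among all 17 windows of the 9 members listed, 9 windows of 8 genes held a GC box, which is 52.9%, against 32.7% of all 32851 windows in the table. The FOXO recognition sequence GTAAACA, searched on both strands, was found in 1 of the 17 windows, at a start of Akt1, and in 3.17% of all windows. Insr was not among the genes listed there. These matches describe the sequence and not binding.

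None of the 10 genes passed the test. By limma with Benjamini-Hochberg adjustment over all 45037 probe sets, 0 of the 31 probe sets had an adjusted p under 0.05, where 0.0977% of all probe sets did, and the lowest adjusted p among them was 0.25. At an unadjusted p under 0.05, 8 of the 31 were past the mark, against 8.68% of all probe sets. With a second quantile normalization 4 of them stayed past it, while Igf1 sets 2, 3 and 4 and Pik3r1 set 2 did not (unadjusted p of 0.0627, 0.0669, 0.0851 and 0.0554). Of the 8, 7 were lower in KO and 1 was higher, against 4.66% and 4.01% of all probe sets. The groups did not overlap in 5 of the 31, of which 4 were lower and 1 higher, against 13.5% of all probe sets, 6.51% lower and 6.97% higher. The sets past the unadjusted mark belong to 4 genes, Igf1, Igf2, Pik3r1 and Akt2, and probe sets of 1 gene can read shared transcripts, so they were not counted as separate observations. By the brightest probe set of each gene, 3 of 10 had an unadjusted p under 0.05, against 10.1% of all genes. The median difference was 0.0098 over the 31 probe sets and 0.0057 over all probe sets. Bright probe sets leaned to lower values in KO in general. Among the 11259 probe sets brighter than the upper quartile, 62.6% were lower, 10.8% were lower at an unadjusted p under 0.05, and the median was -0.047. Of the 16 members among them 11 were lower, 6 of them at that mark.

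**Figure D1:**
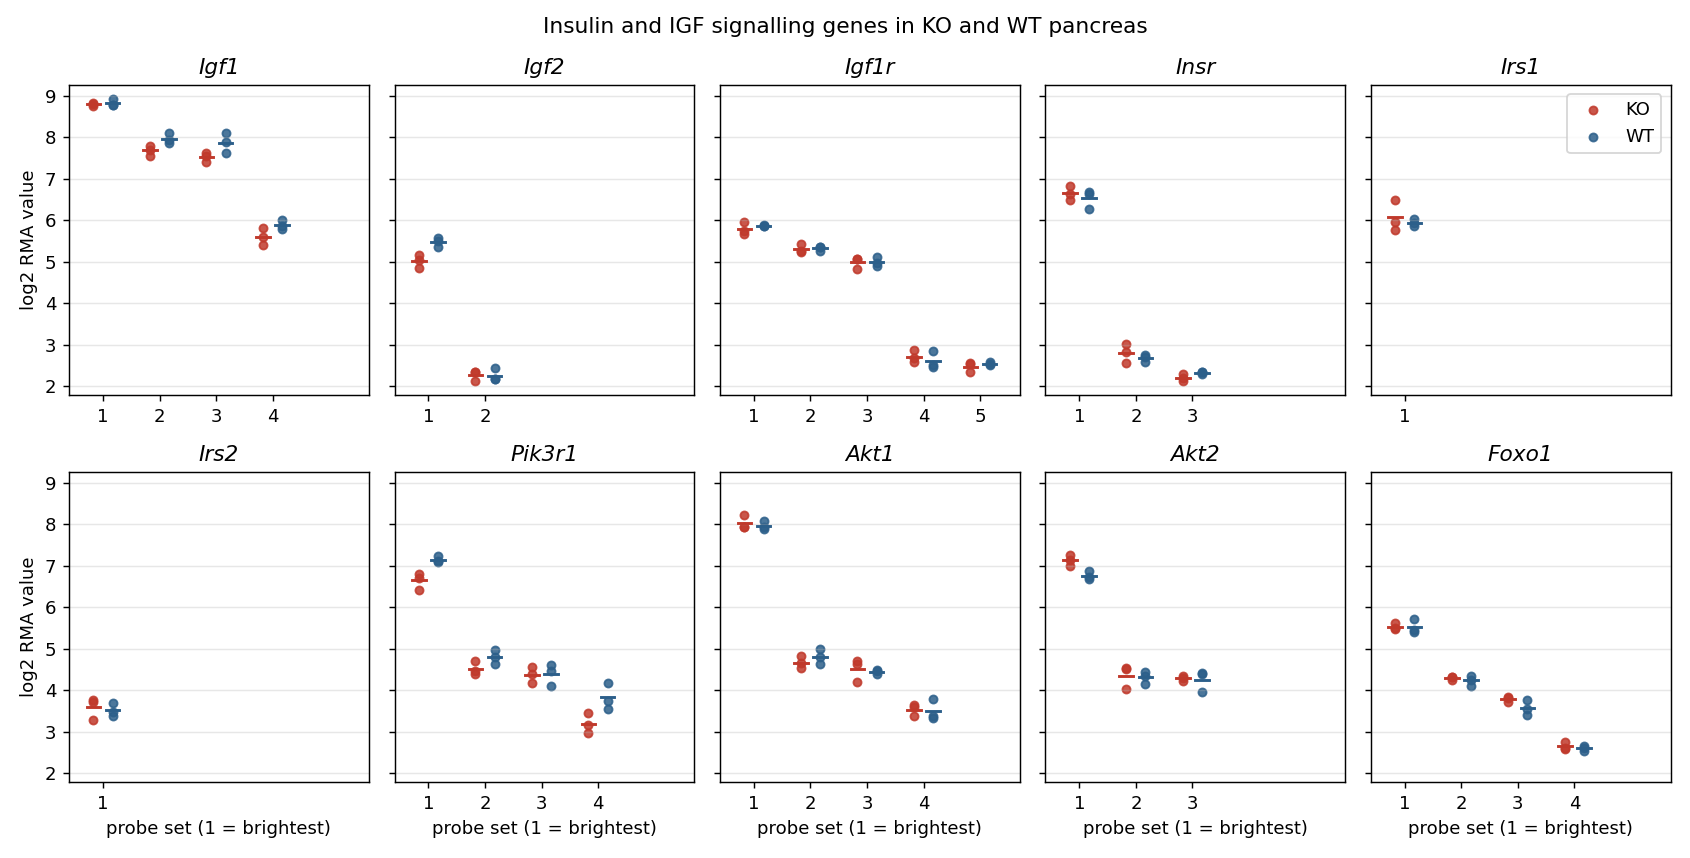
Log2 RMA value (y axis) of every probe set of the 10 genes, ordered by brightness on the x axis, with KO arrays as red points left of WT arrays as blue points and a bar at each group's mean (n = 3 each). The KO and WT points separate without overlap at Igf1 set 2, Igf2 set 1, Pik3r1 sets 1 and 4 and Akt2 set 1, and overlap at the other 26.

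**Figure D2:**
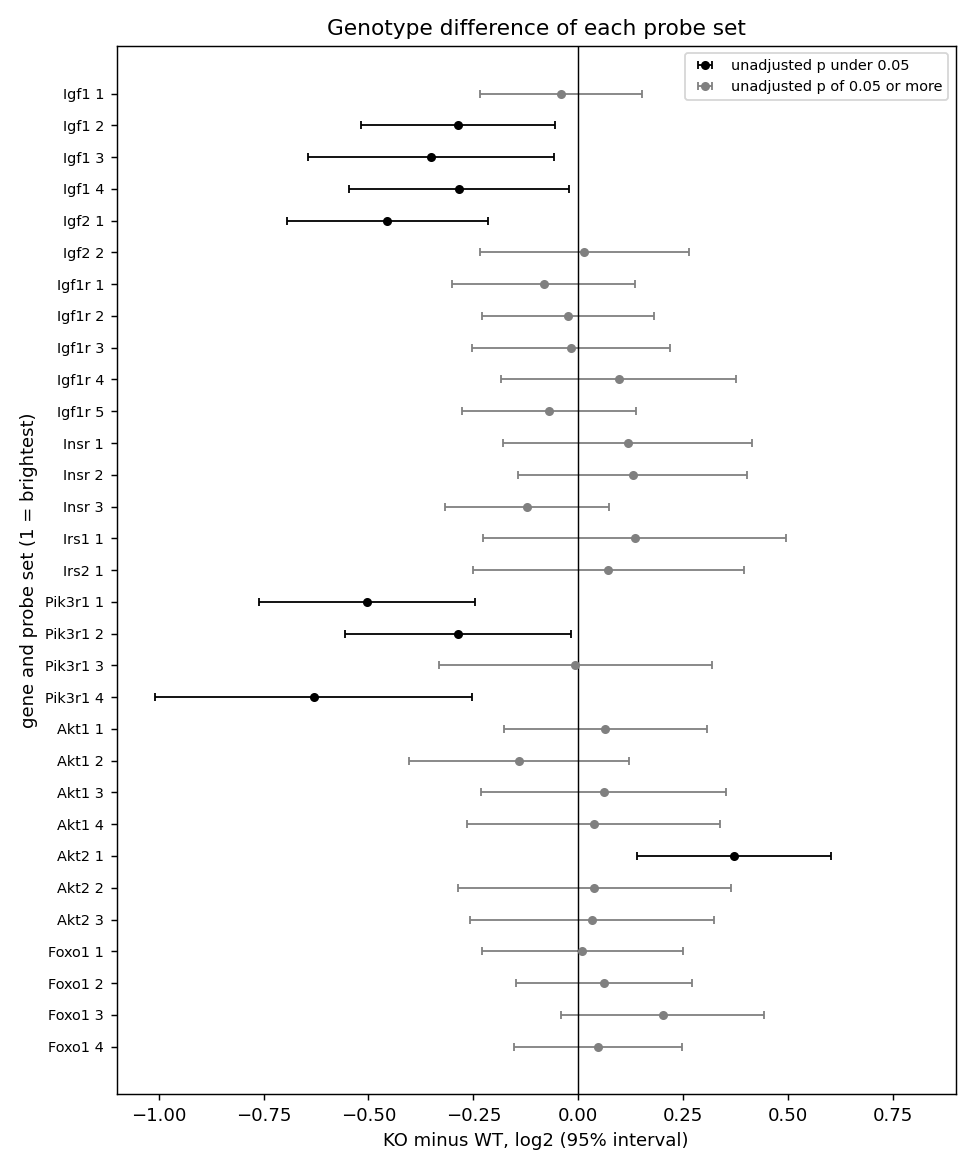
KO minus WT difference in log2 units (x axis) with its 95% interval for each of the 31 probe sets, numbered from the brightest of its gene. Black points have an unadjusted p under 0.05, namely 3 sets of Igf1, 1 of Igf2, 3 of Pik3r1 and 1 of Akt2.

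Among the ligands, Igf2, a growth factor best known from fetal tissues, showed the lower mean in KO with the smaller p. Its set 1 measured 5.03, 4.86 and 5.16 in KO replicates 1, 2 and 3, against 5.34, 5.50 and 5.56 in WT replicates 1, 2 and 3. Every KO value lay below every WT value. The log2 difference was -0.46, with a 95% interval of -0.70 to -0.21, which is 1.37-fold lower (unadjusted p of 0.00188, adjusted p of 0.269 by limma). The other Igf2 probe set lay between 2.12 and 2.44 in all 6 arrays, below the array medians, where a difference cannot be read. Igf2 is imprinted and is expressed mainly from the paternal copy. On chromosome 7 it stands next to the insulin gene Ins2, whose difference was -0.07 with an interval of -0.27 to 0.12.

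Igf1, made in mice by liver and by connective tissue cells, macrophages and fat of many organs, gave different values at its probe sets. The brightest, set 1, measured 8.82, 8.80 and 8.76 in KO and 8.79, 8.79 and 8.93 in WT, with the groups overlapping and a difference of -0.04 (interval -0.23 to 0.15). Set 2 measured 7.56, 7.80 and 7.70 in KO, against 7.87, 7.94 and 8.10 in WT, with no overlap. Its difference was -0.29, with an interval of -0.52 to -0.06 (unadjusted p of 0.0203, adjusted p of 0.473 by limma). Sets 3 and 4 differed by -0.35 and -0.28, with unadjusted p of 0.0238 and 0.0363, and in both the groups overlapped. All 4 sets were thus lower in KO on average, while the one of strongest signal was close to 0. The labels and annotation do not say which Igf1 transcript forms each set reads.

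The receptors showed small differences. Igf1r, the tyrosine kinase receptor for both growth factors, had 3 probe sets above the arrays' upper quartile of 4.53. The brightest of them measured 5.75, 5.67 and 5.95 in KO and 5.87, 5.85 and 5.89 in WT, a difference of -0.08 with an interval of -0.30 to 0.14. The others above the quartile differed by -0.02 each, and the 2 dim sets by 0.10 and -0.07. For Insr, the insulin receptor, 1 of 3 probe sets was above the array medians. It measured 6.64, 6.49 and 6.82 in KO and 6.27, 6.68 and 6.64 in WT, a difference of 0.12 with an interval of -0.18 to 0.42. In every probe set of both receptors the groups overlapped.

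The adaptors Irs1 and Irs2, which carry the signal from receptor to PI3K, had 1 probe set each. Irs1 measured 6.48, 5.97 and 5.77 in KO and 6.03, 5.94 and 5.85 in WT. KO replicate 1 held the highest of the 6 values, and the other KO values lay on either side of the WT mean. The difference was 0.13 with an interval of -0.23 to 0.50, and without KO replicate 1 it was -0.07. Irs2 measured 3.75, 3.72 and 3.27 in KO and 3.46, 3.37 and 3.70 in WT, within 1 unit of the array medians, a difference of 0.07 with an interval of -0.25 to 0.40.

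Pik3r1 showed the lowest p of the 10 genes. It encodes the regulatory subunit that binds phosphorylated adaptors and holds the catalytic subunit, in a long form and shorter ones from the starts shown above. Its brightest probe set measured 6.42, 6.71 and 6.81 in KO replicates 1, 2 and 3, against 7.09, 7.12 and 7.25 in WT replicates 1, 2 and 3. Every KO value was below every WT value. The log2 difference was -0.50, with an interval of -0.76 to -0.25, which is 1.42-fold lower (unadjusted p of 0.0015, adjusted p of 0.25 by limma).

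The other Pik3r1 probe sets did not give 1 answer. The dimmest, set 4, measured 3.45, 3.16 and 2.98 in KO and 4.17, 3.75 and 3.56 in WT, again without overlap. Its difference was -0.63 (interval -1.01 to -0.25, unadjusted p of 0.00419, adjusted p of 0.334 by limma), and its KO values lie near the array medians, where the size can be understated. Set 2 differed by -0.29 with overlapping groups (unadjusted p of 0.039). The last, set 3, measured 4.18, 4.57 and 4.38 in KO and 4.60, 4.09 and 4.46 in WT, a difference of -0.0067 with an interval of -0.33 to 0.32. These 3 dimmer sets carry the same source accession in the platform annotation and yet ranged from -0.63 to -0.0067.

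The kinases differed in what their brightest probe sets showed. Akt2, the AKT form that serves insulin-regulated glucose uptake in mice, measured 7.27, 7.0 and 7.14 in KO replicates 1, 2 and 3, against 6.68, 6.88 and 6.73 in WT replicates 1, 2 and 3. Here every KO value lay above every WT value. The log2 difference was 0.37, with an interval of 0.14 to 0.60, which is 1.29-fold higher (unadjusted p of 0.00508, adjusted p of 0.347 by limma). The suffix of this set's name (_s_at) marks sets that can bind transcripts of other genes as well. The other Akt2 sets, between 3.95 and 4.53 in all arrays, differed by 0.04 and 0.03 with overlapping groups. Akt1, the form most tied to growth, measured 7.94, 7.93 and 8.23 in KO and 7.93, 8.07 and 7.90 in WT at its brightest set, a difference of 0.06 with an interval of -0.18 to 0.31. Its dimmer sets ran from -0.14 to 0.06.

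Foxo1, which represses growth genes when AKT is inactive, showed overlapping groups at its 4 probe sets. The brightest, also of the type that can bind other transcripts, measured 5.48, 5.51 and 5.61 in KO and 5.39, 5.46 and 5.72 in WT, a difference of 0.0098 with an interval of -0.23 to 0.25. The other sets differed by 0.06, 0.20 and 0.05, and the lowest unadjusted p was 0.0926. Over the 18 probe sets of the 6 genes outside Igf1, Igf2, Pik3r1 and Akt2, the 95% intervals lay between -0.40 and 0.50. These include Igf1r sets 4 and 5, Insr sets 2 and 3 and Foxo1 set 4, which lie below the array medians, where a difference cannot be read.

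The 8 probe sets past the unadjusted mark kept their direction with each array left out, while their p did not always stay under 0.05. Igf2 set 1, Pik3r1 sets 1 and 4 and Akt2 set 1 stayed under it in 6 of 6 such fits. Igf1 sets 2, 3 and 4 did so in 4, 3 and 2 of the 6, and Pik3r1 set 2 in 2 of the 6. Without KO replicate 1 the brightest Pik3r1 set differed by -0.39, and without WT replicate 3 Igf1 set 3 differed by -0.23, against -0.35 with all arrays. Without KO replicate 3 Igf1 set 4 differed by -0.18, against -0.28 with all arrays.

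**Figure D3:**
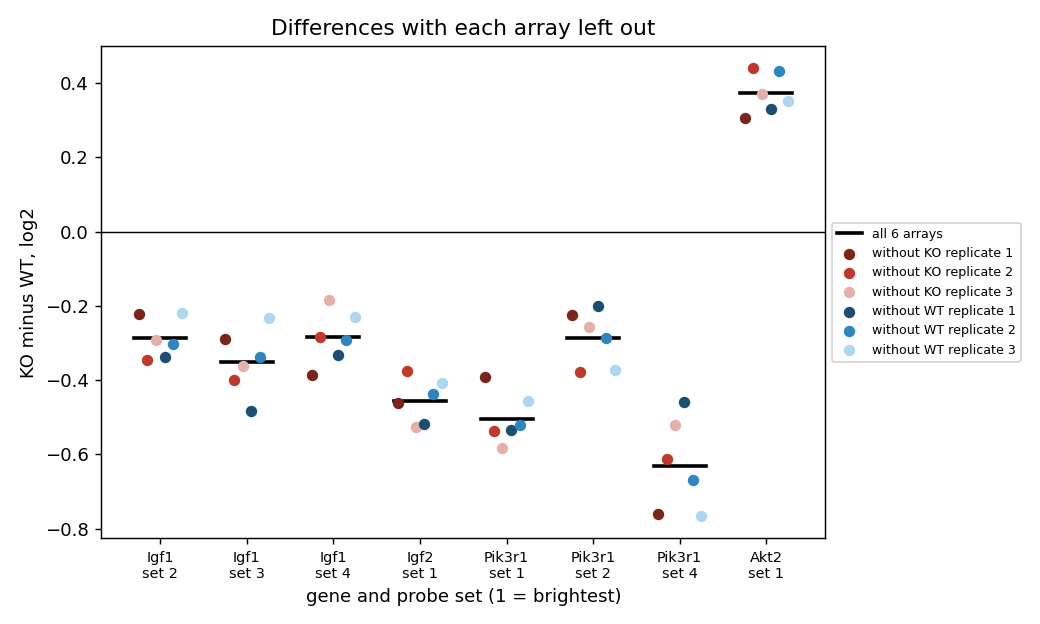
KO minus WT difference in log2 units (y axis) of the 8 probe sets with an unadjusted p under 0.05, with all 6 arrays (black bar) and with each array left out (red shades KO, blue shades WT). The 7 sets of Igf1, Igf2 and Pik3r1 stay below 0 in each fit, and Akt2 set 1 stays above it, between 0.31 and 0.44.

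Markers of other cell types differed alongside some of these values. In whole tissue, fewer cells of a type and less RNA per cell cannot be told apart. Of the fibroblast and stellate cell markers 10 of 10 measured were lower in KO, 4 of them at an unadjusted p under 0.05, and 0 lay below the array medians. Over all genes 50.2% were lower and 5.58% were lower at that mark, and bright sets leaned lower, as given above. Their mean log2 level was 6.70 to 7.07 in KO and 7.11 to 7.42 in WT, without overlap (exact permutation p of 0.1, two-sided, the smallest that 3 against 3 arrays allow). Col1a1, Col1a2 and Col3a1 of this list differed by -0.61, -0.43 and -0.50. Igf1 and Igf2 are known products of such cells, and the part of this shift in their values was not tested.

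Fat marker levels differed widely between mice. The mean of 6 measured adipocyte markers was 3.99 in KO replicate 1, 6.12 to 6.16 in the other KO arrays, and 5.68 to 6.70 in WT (exact permutation p of 0.4), with 2 of the 6 below the array medians. KO replicate 1 also held the lowest values of Pik3r1 sets 1 and 2 and of Igf1 sets 2 and 3. Without that array Igf1 sets 2 and 3 differed by -0.22 and -0.29, with unadjusted p of 0.0801 and 0.081 by limma. At Igf1 sets 1 and 4 and Pik3r1 set 4 the same array held the highest KO value. Without it Igf1 set 4 differed by -0.39 and Pik3r1 set 4 by -0.76, against -0.28 and -0.63 with all arrays. The part of fat in these values was not tested. Macrophage and other leukocyte markers averaged 4.58, 5.07 and 5.17 in KO replicates 1, 2 and 3 and 4.92 to 5.15 in WT (exact permutation p of 0.9). Endothelial markers averaged 4.45 to 4.58 in KO and 4.55 to 4.64 in WT (exact permutation p of 0.2). Liver markers averaged 4.32 to 4.56 in KO and 4.51 to 4.72 in WT (exact permutation p of 0.2). Of the 7 measured, 3 were lower in KO and 4 higher, and 3 lay below the array medians. The brightest of the 7, Ttr, averaged 10.19 in KO and 10.98 in WT. It differed by -0.79 (unadjusted p of 0.0003, adjusted p of 0.142 by limma) and was picked with its values in view.

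Beta cell markers averaged 5.63 to 5.79 in KO and 5.72 to 5.83 in WT (exact permutation p of 0.7). This is a mean over genes that went both ways, 6 lower and 3 higher, among them Pdx1 at 0.48 and Ucn3 at -0.32. Ucn3 averaged 2.49 in KO and 2.81 in WT, below the array medians, where a difference cannot be read. Acinar markers averaged 12.66 to 12.73 in KO and 12.73 to 12.84 in WT (exact permutation p of 0.1). The groups did not overlap, but the highest KO mean, 12.7262, and the lowest WT mean, 12.7269, were nearly equal. Of the 10 acinar markers, 7 lie near the highest value in the table, 14.57, and say little of a change, while the transcription factor Ptf1a differed by -0.56. Duct markers averaged 5.20 to 5.40 in KO and 5.07 to 5.16 in WT, without overlap (exact permutation p of 0.1). The list was mixed, with 4 of its 6 measured genes higher and 2 lower. Muc1 differed by 0.59, Sox9 by 0.52 and Krt7 by 0.24, while Krt19 differed by -0.26. Pdx1, Ucn3, Ptf1a and Muc1 were picked with their values in view, had unadjusted p of 0.0135, 0.017, 0.0312 and 0.000466, and like Sox9 (0.00874) did not pass by limma. The part of these cells in the values of the 10 genes was not tested.

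The array level of Xist, which is transcribed in females, was 9.11 and 9.79 in KO replicates 2 and 3 and 9.09 in WT replicate 3, and at most 4.43 in the other arrays. With it as a covariate the brightest Pik3r1 set differed by -0.60, Igf2 set 1 by -0.48 and Akt2 set 1 by 0.42. Their unadjusted p were then 0.000238, 0.00336 and 0.00424, and their adjusted p by limma 0.157, 0.386 and 0.403. Pik3r1 set 4 differed by -0.47 in that fit, against -0.63 without the covariate, and Igf1 set 4 and Pik3r1 set 2 no longer had an unadjusted p under 0.05 (0.0878 and 0.082). Igf1 sets 2 and 3 differed by -0.36 and -0.45 in the same fit, against -0.29 and -0.35 without the covariate. Their unadjusted p were 0.00561 and 0.00472, and their adjusted p by limma 0.430 and 0.411.

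The wider pathway was read in 7 lists of 88 genes, 81 of them measured, each gene by its brightest probe set. By limma 0 of the 81 passed, against 0.132% of all genes, and 15 had an unadjusted p under 0.05, of which 10 were lower and 5 higher, against 5.58% and 4.55% of all genes. The median difference was -0.05 over these genes and -0.00056 over all genes. Of the 81, 51 were lower, which is 63.0%, against 50.2% of all genes. Bright probe sets leaned lower in general, as given above. Above the upper quartile 62.6% of probe sets were lower, 10.8% were lower at the unadjusted mark, and the median was -0.047. Not all of the 81 genes lie above that quartile (Igfbp1 and Irs4 do not), so these sets are not matched in brightness. The groups did not overlap in 19, of which 13 were lower and 6 higher, against 14.4% of all genes, 7.56% lower and 6.87% higher. These genes include inhibitors as well as carriers of the signal.

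Ligands and their binding proteins had a median of -0.06 over 15 genes, with 2 higher and 0 lower at the unadjusted mark. Igfbp5, a secreted protein that binds the growth factors, measured 5.88, 6.06 and 5.80 in KO and 5.60, 5.77 and 5.68 in WT (difference 0.23, unadjusted p of 0.0469). Its other probe set, 4.12, 5.71 and 5.83 in KO and 5.50, 5.76 and 5.61 in WT, went the other way at -0.40 (unadjusted p of 0.302), and the mean of both sets differed by -0.09. Igf2bp3, which binds Igf2 mRNA, differed by 0.28 (unadjusted p of 0.0155) at the brightest of its 6 probe sets. Its dimmer sets ran from -0.08 to 0.16, none past the unadjusted mark. The 5 measured receptor genes had a median of -0.06. Igf2r, which takes up Igf2 for breakdown in lysosomes, measured 6.11, 5.77 and 5.73 in KO, against 6.32, 6.29 and 6.21 in WT, a difference of -0.40 without overlap (interval -0.66 to -0.14, unadjusted p of 0.00635, adjusted p of 0.368 by limma). Its other probe set, of similar brightness, differed by -0.06 with overlapping groups (unadjusted p of 0.638), and the mean of both sets by -0.23. Ptpn1, a phosphatase that switches off the insulin receptor, differed by 0.27 (unadjusted p of 0.0249) at its brightest probe set and by -0.01 (unadjusted p of 0.932) at the other.

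Within the adaptor list the largest difference was that of Socs3. This cytokine-induced protein, which blocks Irs1 and Irs2, measured 7.13, 6.22 and 5.89 in KO, against 5.23, 4.41 and 5.40 in WT. All KO values lay above all WT values, with wide spread in both groups, and the same held at all 3 of its probe sets. The difference was 1.40 (interval 0.68 to 2.12, unadjusted p of 0.00162, adjusted p of 0.255 by limma). Grb10, an adaptor that restrains both receptors, measured 7.68, 7.61 and 7.65 in KO and 8.07, 7.97 and 7.80 in WT, a difference of -0.30 without overlap (unadjusted p of 0.0127). Its 2 other probe sets, near the array medians, differed by 0.04 and -0.11 with overlapping groups. The median of the 13 genes was -0.05. Among PI3K subunits and lipid phosphatases 1 of 9 was past the unadjusted mark. This was Pik3r3, another regulatory subunit, at 3.41 ± 0.04 in KO and 3.09 ± 0.24 in WT (SD, n = 3 each; difference 0.32, unadjusted p of 0.0253), near the array medians. Pdpk1, the kinase that activates AKT, differed by -0.18 (unadjusted p of 0.162).

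In the AKT and mTOR lists, 2 genes in each were past the unadjusted mark, all lower in KO. Trib3, a pseudokinase described as an inhibitor of AKT, measured 4.13, 4.63 and 4.52 in KO, against 6.00, 6.08 and 5.29 in WT, at its brightest set. The groups were well apart, with a difference of -1.36 (interval -1.83 to -0.90, adjusted p of 0.0614 by limma). Its other probe set passed, with a difference of -1.72 and an adjusted p of 0.024 by limma. It was the single one to pass among 200 probe sets of the wider genes, against 0.0977% of all probe sets. Ddit4, which restrains mTOR under stress, measured 5.76, 6.42 and 6.67 in KO, against 8.67, 8.03 and 6.90 in WT. Each KO value was below each WT value, of which replicate 3 was the lowest by over 1 unit. The difference was -1.58 (interval -2.45 to -0.72, unadjusted p of 0.00238, adjusted p of 0.276 by limma), and without WT replicate 3 it was -2.06 (adjusted p of 0.0473 by limma), while over the alternatives the adjusted p ran from 0.0473 to 0.622. Trib1 differed by -0.30 and Tsc2, of the complex that holds back mTOR, by -0.22 (unadjusted p of 0.0214 and 0.029). The medians of the AKT and mTOR lists were -0.03 and -0.02, and other inhibitors in them did not share the sign or size, with Phlpp1 and Phlpp2 at 0.21 and 0.24 and Tsc1 and Deptor at -0.05 and -0.0071 (picked with their values in view).

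**Figure D4:**
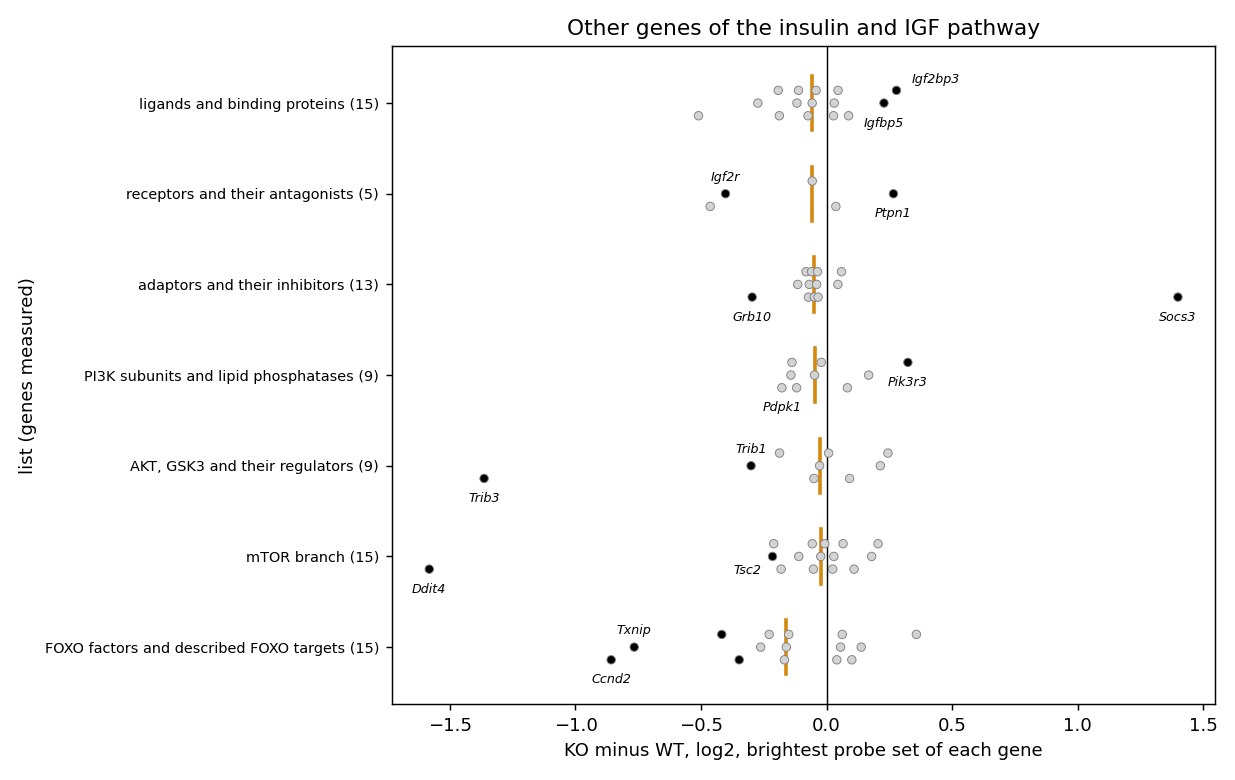
KO minus WT difference in log2 units (x axis) of 81 further pathway genes, 1 point per gene at its brightest probe set, in 7 lists, with black points at an unadjusted p under 0.05 and orange bars at list medians. Socs3 lies farthest to the right at 1.40, and Ddit4 and Trib3 farthest to the left at -1.58 and -1.36.

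FOXO factors and genes described as FOXO targets had the lowest median of the 7 lists, -0.16 over 15 genes, with 4 lower and 0 higher at the unadjusted mark. Over all genes 5.58% were lower and 4.55% higher at that mark. Of probe sets above the upper quartile 10.8% were lower at it. Ccnd2, a cyclin that beta cells of mice need to divide, measured 8.93, 8.42 and 8.94 in KO, against 9.73, 9.79 and 9.34 in WT. Its difference was -0.86 (interval -1.23 to -0.49, unadjusted p of 0.000475, adjusted p of 0.177 by limma). All 7 probe sets of Ccnd2 were lower in KO without overlap, by -1.05 to -0.29, and their lowest adjusted p was 0.0629. Txnip, a thioredoxin inhibitor induced by glucose, differed by -0.77 (unadjusted p of 0.00578). The other 2 genes past the mark, Cited2 at -0.42 and Sesn1 at -0.35 at their brightest sets (other sets -0.11 for Cited2 and -0.23 to 0.18 for Sesn1), were picked with their values in view and not by rule. Of the 15 genes 9 were lower and 6 higher, which is 60% lower, against 50.2% of all genes. Among the higher ones were Pdk4 at 0.36, Ccng2 at 0.14 and Sesn3 at 0.10, also picked with their values in view. As background, FOXO1 is described as repressing Ccnd2 and as inducing Sesn1 and Cited2.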

How the data were processed

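The authors deposited log2 values, 1 for each array and probe set. The submitters' processing notes name RMA and affy, with neither version nor settings. RMA equalises the arrays' distributions, so a shift shared by most genes cannot be seen, and without raw files there is no detection call. The number of arrays limits the precision.

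Of 45101 probe sets, 64 Affymetrix controls were left out. Of the remaining 45037, 34945 had 1 gene symbol, 932 several and 9160 none in the platform annotation. Symbols were updated by Entrez identifier through RefSeq (GRCm38.p6) for 34741. Each probe set was tested for KO minus WT by limma 3.58.1 (lmFit, then eBayes; R 4.3.3), two-sided, without covariates, adjusted by Benjamini-Hochberg over all 45037. A gene elsewhere than in the 10 was represented by its brightest set. Intervals are 95% on 9.53 degrees of freedom. The fit was tested on simulated data.

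Named genes were the 10, Pebp1, up to 2 genes of smallest p per wider list and up to 3 markers per marker list. The members and lists were chosen with earlier results of these data known. Alternatives were further normalizations, filters, variance models, weighting of arrays, a block for the replicate number, the Xist level as a covariate, each array left out, and other probe set choices.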

Additional observations from a re-analysis of the deposited data

How the results depend on the processing

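No probe set of the 10 genes passed under any of the alternatives, at an adjusted p under 0.1 or without sets named _x_at or _s_at, in a range of adjusted p from 0.112 (Pik3r1 set 4 with the replicate block) upward. Over all probe sets the count was 44, against 33 with the replicate block, 22 with the Xist covariate, 76 at an adjusted p under 0.1, and 16 to 41 with 1 array left out (24 and 18 without KO replicates 1 and 2, 26 and 16 without WT replicates 1 and 2). Among the wider genes Trib3 passed with the intensity trend and robust variance, at an adjusted p under 0.1 and by the mean of its probe sets (1 gene each), and Trib3 and Ddit4 without WT replicate 3, a range of 0 to 2 with 1 array left out. The cause was not tested. Same-numbered arrays deviated from their group means with correlations of 0.188, -0.031 and -0.082, and not every array correlated best with its own number, so the numbers were not taken as pairs. Of 31 probe sets, 15 never changed sign, among them the 8 past the unadjusted mark. The other 16, with small differences, did. With a second quantile normalization Igf1 set 1 was at 0.023, Igf2 set 2 at -0.0031, Igf1r sets 2 and 3 at 0.026 and 0.023, and Pik3r1 set 3 at 0.0045. With equal medians Igf2 set 2 was at -0.0067 and Foxo1 set 1 at -0.011, with array weights Pik3r1 set 3 at 0.027, and with the Xist covariate Foxo1 set 1 at -0.065. With 1 array left out, Igf1 set 1 ran from -0.063 to 0.0033, Igf2 set 2 from -0.032 to 0.11, Igf1r set 2 from -0.082 to 0.011 and set 3 from -0.067 to 0.065, Insr set 1 from -0.013 to 0.20, Irs1 from -0.068 to 0.28, Irs2 from -0.014 to 0.23, Pik3r1 set 3 from -0.15 to 0.10, Akt1 set 1 from -0.032 to 0.12, set 3 from -0.032 to 0.22 and set 4 from -0.047 to 0.18, Akt2 set 2 from -0.051 to 0.21 and set 3 from -0.12 to 0.12, Foxo1 set 1 from -0.056 to 0.11, set 2 from -0.0019 to 0.12 and set 4 from -0.0011 to 0.076. The marker lists, left out 1 array at a time after seeing the data, ran from -0.069 to 0.014 for beta cells and from -0.19 to 0.11 for leukocytes, and the other 6 kept their sign.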

Other observations

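Igf2, Igf2r and Grb10 are imprinted genes, each expressed mainly from 1 parental copy in mice, and at its brightest probe set each measured lower in KO without overlap. Their other sets overlapped, at 0.01 for Igf2 and 0.04 and -0.11 for Grb10, all dim, and at -0.06 for Igf2r, about as bright as the first. A list of 19 imprinted genes was put together after these values were seen, so it is described with no test. Of 18 measured, 15 were lower in KO, 6 of them and 0 of the higher ones at an unadjusted p under 0.05, and 0 passed over all genes by limma. Over all genes 50.2% were lower, and 5.58% were lower at an unadjusted p under 0.05. Beside the 3 genes above, the imprinted genes lower at that mark were Cdkn1c, Mest at -0.35 and Ndn at -0.50. Cdkn1c, an inhibitor of the cell cycle, measured 4.61, 5.01 and 4.96 in KO and 5.12, 5.53 and 5.24 in WT (difference -0.44). Without Igf2, Igf2r and Grb10, which prompted the list, the median of the 15 others was -0.07. Of these 15, 12 were lower, 3 of them at an unadjusted p under 0.05. Plagl1, a transcription factor described as a regulator of other imprinted genes in mice, measured 8.41, 8.54 and 8.17 in KO and 8.52, 8.37 and 8.50 in WT (difference -0.09, unadjusted p of 0.443), with overlapping groups. Cdkn1c, Mest, Ndn and Plagl1 were likewise picked with their values in view. Fibroblast markers were lower in KO, as given above, and their part in these values was not tested.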
